A study of Mus musculus with 6 samples.

Results

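The genes Th, Ddc, Dbh, Slc6a2, Slc6a3, Slc18a2, Drd1, Drd2 and Maob make, carry, sense and break down dopamine and noradrenaline. They are 9 of the 60354 features counted in each brain and were chosen by gene symbol, through the Ensembl identifier of each row in GENCODE M21, and not by a measured value. Brain RNA was sequenced from 6 animals, of which mice 2, 5 and 10 were control mice and mice 17, 22 and 26 were PLDP mice, all male C57BL/6NCrSlc mice that were 16 weeks old when the diets began. For 16 weeks the PLDP mice ate AIN-93M chow, modified to hold 20% PLDP, a porcine liver product decomposed by protease, and the control mice ate modified AIN-93M chow without PLDP and with matched calories. Both groups then went through the same series of behavioral tests, during which no PLDP was fed, and RNA was taken from whole brain after the last test. The comparison asked whether brain gene expression differed between PLDP and control mice. Markers were read beside the label whole brain, although general markers of brain cells cannot show whether every region was sampled alike. Lists of genes by region are given below, and that of brainstem and spinal neurons differed between the diets. The summed level of 8 genes of brain neurons and glia was between 6749 and 7240 CPM (reads on the gene per 1000000 counted reads) in the 6 mice, and that of 6 pituitary genes was at most 0.433 CPM, with Lhb and Pou1f1 at a count of 0 in every mouse and between 2 and 14 reads in all for Gh, Prl, Tshb and Cga.

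Dopamine and noradrenaline are catecholamines made from tyrosine. Tyrosine hydroxylase forms L-DOPA, DOPA decarboxylase turns it into dopamine, and dopamine beta-hydroxylase turns dopamine into noradrenaline inside vesicles. In the brain these steps take place in small groups of neurons, of which those of the midbrain use dopamine and those of the locus coeruleus use noradrenaline, while the receptors lie mostly on other neurons such as those of the striatum.

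All 9 genes were detected in all 6 mice and passed the filter on low counts, and for none of them was a difference between PLDP and control mice found. By edgeR's quasi-likelihood test 0 of 9 passed an unadjusted p of 0.05, against 8.60% of the 18580 features tested, and 0 of 9 separated the 3 PLDP mice from the 3 control mice without overlap, against 14.2% of features. The fitted log2 fold changes of PLDP over control were positive for 4 genes and negative for 5, with a median of -0.01. The 95% confidence intervals of all 9 lay between a 0.656-fold and a 1.57-fold level in PLDP mice, so larger differences of the group means lay outside the intervals, and smaller ones may be below what 3 mice per diet can show. In whole tissue, fewer cells of a type and less RNA per cell cannot be told apart.

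**Figure D1:**
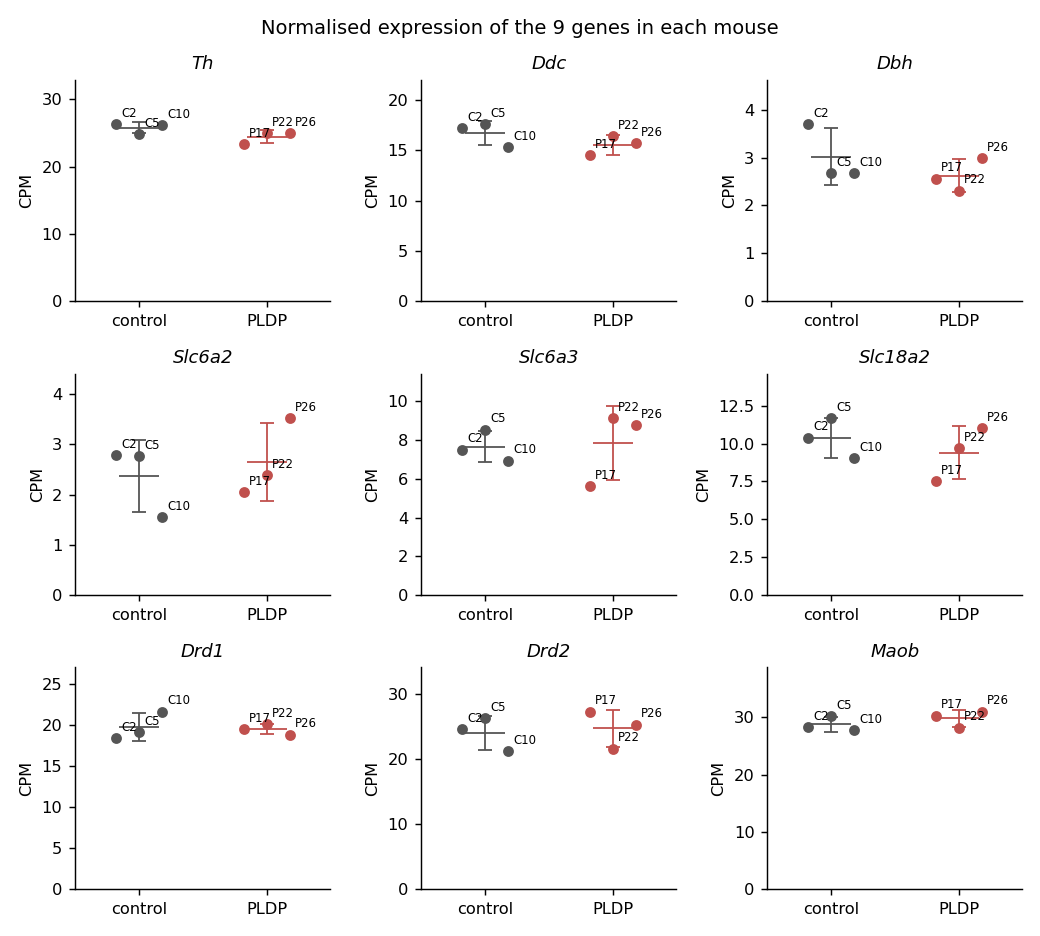
Normalised expression in CPM (vertical axes, from 0) of the 9 genes in each control (grey) and PLDP (red) mouse, with the mean and SD of the 3 mice of each diet. The diets overlap for every gene, and single mice stand low, such as PLDP mouse 17 at 5.63 CPM for Slc6a3 and control mouse 10 at 1.55 CPM for Slc6a2.

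To show the control regions of these genes, promoter windows from 250 bases before to 50 bases after the transcription start were taken from RefSeq (GRCm38.p6), in which 7 of the 9 genes had 9 windows. The stretches printed here run from 100 bases before to 10 bases after the start, 5′ to 3′ on the gene's strand. Th (chr7:142899986-142900095, minus strand) and Slc18a2 (chr19:59260778-59260887, plus strand) are shown because they held a cyclic AMP response element with the letters TGACGTCA, printed in capitals. Slc6a3 (chr13:73536647-73536756, plus strand) and Dbh (chr2:27165407-27165516, plus strand) are shown beside them as a transporter and an enzyme gene of the pathway in whose windows these letters were not found.
Th: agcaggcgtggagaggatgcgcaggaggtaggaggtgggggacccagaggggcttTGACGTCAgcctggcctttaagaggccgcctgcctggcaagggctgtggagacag
Slc18a2: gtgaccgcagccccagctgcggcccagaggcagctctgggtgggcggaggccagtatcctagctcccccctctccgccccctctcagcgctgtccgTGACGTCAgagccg
Slc6a3: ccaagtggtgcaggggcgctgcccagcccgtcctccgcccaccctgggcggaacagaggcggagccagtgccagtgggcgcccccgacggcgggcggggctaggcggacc
Dbh: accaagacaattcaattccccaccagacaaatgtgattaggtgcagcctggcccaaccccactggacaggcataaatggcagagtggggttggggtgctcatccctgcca
Both strands of every window were searched. TGACGTCA was present in 588 of 32851 windows (1.79%), and its first base lay 45 bases before the start of Th and 4 bases before that of Slc18a2. The AP-1 letters TGANTCA, found in 7.81% of windows, were present for Th and Ddc. The NBRE letters AAAGGTCA, bound by NR4A nuclear receptors and found in 1.51% of windows, were present for Ddc alone among the 7 genes. The GC box GGGCGG was present for Drd1, Drd2, Slc18a2, Slc6a3 and Th and for 35.7% of all windows, and TATAAA was present for Ddc and for 13.6% of all windows. These matches describe sequence, and no binding was measured.

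The enzymes of synthesis were slightly lower on average in PLDP mice, within the spread between mice. Th, which encodes tyrosine hydroxylase, the rate-limiting enzyme of the pathway, lies at chr7:142892752-142931128 on the minus strand (ENSMUSG00000000214). Its normalised expression was 26.3, 24.8 and 26.1 CPM in control mice 2, 5 and 10 and 23.3, 25.0 and 25.0 CPM in PLDP mice 17, 22 and 26. PLDP mouse 17 was the lowest, and the other PLDP mice lay just above control mouse 5, so that the diets overlapped. The log2 fold change was -0.07 ± 0.07 (SE), with a 95% interval from -0.21 to 0.07 and an adjusted p of 0.81 (edgeR quasi-likelihood test, Benjamini-Hochberg). Th varied less between mice than any other of the 9 genes, with a coefficient of variation (CV) within diets of 3.60%, against 4.34% from the counting of reads alone.

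Ddc encodes DOPA decarboxylase, which also makes serotonin, and lies at chr11:11814101-11898144 on the minus strand (ENSMUSG00000020182). It was at 17.2, 17.6 and 15.3 CPM in the control mice and at 14.5, 16.4 and 15.7 CPM in the PLDP mice. Control mice 2 and 5 were above all PLDP mice, and control mouse 10 was between PLDP mice 17 and 26. For Ddc the log2 fold change was -0.11 ± 0.09 (SE), with an edgeR adjusted p of 0.778. The antisense gene 1700042O10Rik overlaps Ddc, and whether the counting used strand is not given in the sources used here. Dbh, the dopamine beta-hydroxylase gene and a mark of noradrenaline neurons, lies at chr2:27165233-27183200 on the plus strand (ENSMUSG00000000889). It was at 3.70, 2.68 and 2.67 CPM in the control mice and at 2.56, 2.31 and 2.99 CPM in the PLDP mice, from 55 to 77 reads per mouse. Control mouse 2 was high, and the other 5 mice lay within 2.31 to 2.99 CPM. Its fold change, -0.21 ± 0.19 (SE) on the log2 scale, had a 95% interval from -0.61 to 0.19 and an edgeR adjusted p of 0.80, and it was -0.04 without control mouse 2.

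The cofactor enzymes of the pathway, which make and recycle the tetrahydrobiopterin that tyrosine hydroxylase needs, showed no call either. Of the 9 listed genes of synthesis and cofactor supply, 8 were tested, 0 passed in either direction, and 7 of the 8 fold changes were negative, with a median of -0.07 against a median of 0 over all features. Qdpr, which recycles the cofactor, was the most abundant at 233 ± 13.8 CPM in control and 224 ± 20.2 CPM in PLDP mice (SD, n = 3 each). Gch1, the first enzyme of cofactor synthesis, was the only one with a positive value, at a log2 fold change of 0.15 ± 0.17 (SE). Pts, Spr and Pcbd1 lay between -0.12 and -0.02. Pnmt, which turns noradrenaline into adrenaline, had 3 to 8 reads per mouse and was under the filter.

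The transporter genes varied between mice of the same diet, Slc6a2 and Slc6a3 the most of all 9 genes. Slc6a3 encodes the dopamine transporter, a defining gene of midbrain dopamine neurons, and lies at chr13:73536747-73578672 on the plus strand (ENSMUSG00000021609). Its level was 7.50, 8.53 and 6.94 CPM in the control mice and 5.63, 9.14 and 8.77 CPM in the PLDP mice. Both the lowest and the highest values were thus in PLDP mice. On the log2 scale the fold change was 0.03 ± 0.15 (SE), with an edgeR adjusted p of 0.972. Slc18a2, which encodes the vesicular monoamine transporter of dopamine, noradrenaline and serotonin neurons, lies at chr19:59260896-59296012 on the plus strand (ENSMUSG00000025094). It was at 10.4, 11.7 and 9.02 CPM in the control mice and at 7.53, 9.69 and 11.0 CPM in the PLDP mice, and PLDP mouse 17 was again the lowest. Its fold change was -0.15 ± 0.13 (SE) on the log2 scale, with an edgeR adjusted p of 0.797, and without PLDP mouse 17 it was -0.01. The antisense gene Gm29261 overlaps Slc18a2.

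Slc6a2 encodes the noradrenaline transporter and lies at chr8:92960079-93001667 on the plus strand (ENSMUSG00000055368). It was at 2.79, 2.77 and 1.55 CPM in the control mice and at 2.05, 2.39 and 3.53 CPM in the PLDP mice, from 32 to 66 reads per mouse. Control mouse 10 was the lowest and PLDP mouse 26 the highest, and the diets overlapped between them. This log2 fold change, 0.14 ± 0.24 (SE), had the widest interval of the 9 genes, from -0.37 to 0.65, with an edgeR adjusted p of 0.916, and it was -0.10 without PLDP mouse 26. The CV within diets was 29.6% for Slc6a2, 19.1% for Slc6a3 and 15.8% for Slc18a2, and the counting of reads alone would give 13.8%, 7.81% and 6.92%.

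**Figure D2:**
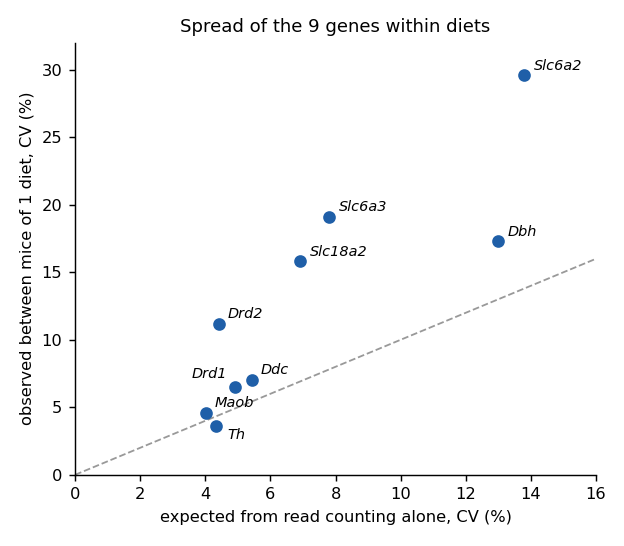
Coefficient of variation between mice of 1 diet (vertical axis, percent) against the value that counting of reads alone would give (horizontal axis, percent) for the 9 genes, with equality as the dashed line. Slc6a2 lies at 29.6% against 13.8% and Slc6a3 at 19.1% against 7.81%, while Th lies below the line at 3.60% against 4.34%.

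Among the other transporters, Slc22a3, a low-affinity carrier that clears monoamines outside nerve endings, rose in PLDP mice at the unadjusted threshold. It was at 1.92, 1.81 and 1.6 CPM in the control mice and at 3.25, 2.26 and 2.35 CPM in the PLDP mice, without overlap. The log2 fold change was 0.56 ± 0.20 (SE), with an unadjusted p of 0.0144 and an adjusted p of 0.448 by edgeR's quasi-likelihood test. Without PLDP mouse 17 it was 0.37 with an edgeR unadjusted p of 0.108. Slc29a4, another low-affinity monoamine carrier, was at 24.5 ± 1.90 CPM in control and 23.9 ± 0.943 CPM in PLDP mice (SD, n = 3 each). Slc18a1, the vesicular transporter of endocrine cells, had 5 to 14 reads per mouse and was under the filter.

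Among the enzymes of breakdown, the monoamine oxidases of the outer mitochondrial membrane remove the amine group. Maob, which in brain is found mostly in astrocytes and serotonin neurons, lies at chrX:16709282-16817366 on the minus strand (ENSMUSG00000040147). It was at 28.3, 30.2 and 27.8 CPM in the control mice and at 30.3, 28.2 and 31.0 CPM in the PLDP mice. Control mouse 5 lay just below PLDP mouse 17, PLDP mouse 22 lay just below control mouse 2, and the diets overlapped. For Maob the log2 fold change was 0.05 ± 0.06 (SE), with a 95% interval from -0.09 to 0.19 and an edgeR adjusted p of 0.883.

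Maoa, the other monoamine oxidase and the form found in noradrenaline and dopamine neurons, fell in PLDP mice at the unadjusted threshold. Its level was 44.5, 44.6 and 44.2 CPM in the control mice and 39.1, 40.2 and 40.5 CPM in the PLDP mice, so every PLDP mouse was below every control mouse. Maoa had a log2 fold change of -0.16 ± 0.05 (SE), with an unadjusted p of 0.00898 and an adjusted p of 0.399 by edgeR's quasi-likelihood test. Aldh2 and Aldh1a1, which oxidize the aldehydes formed by the oxidases, and Akr1b3, an aldo-keto reductase, had log2 fold changes of 0.02, -0.03 and -0.10. Whether Maob and Maoa differed in their response was not tested.

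The dopamine receptor genes did not differ between the diets beyond their spread. Drd1 encodes the receptor of striatal neurons that project to the midbrain and lies at chr13:54051183-54055705 on the minus strand (ENSMUSG00000021478). It was at 18.4, 19.1 and 21.6 CPM in the control mice and at 19.5, 20.1 and 18.8 CPM in the PLDP mice. All PLDP mice lay within the range of the control mice. The log2 fold change was -0.01 ± 0.08 (SE), with an edgeR adjusted p of 0.977. Drd2 encodes the receptor of the other class of striatal projection neurons and the autoreceptor of dopamine neurons, and lies at chr9:49340627-49408177 on the plus strand (ENSMUSG00000032259). It was at 24.6, 26.3 and 21.2 CPM in the control mice and at 27.3, 21.6 and 25.3 CPM in the PLDP mice, with control mouse 10 the lowest and PLDP mouse 17 the highest. For Drd2 the log2 fold change was 0.04 ± 0.09 (SE), with an edgeR adjusted p of 0.949. Drd5, the other receptor of the D1 class, was at 3.23 ± 0.118 CPM in control and 3.21 ± 0.276 CPM in PLDP mice (SD, n = 3 each). Drd3 had 0 to 12 reads and Drd4 5 to 12 reads per mouse, and both were under the filter.

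An exact two-sided permutation test of the mean log2 CPM over the 20 assignments of the 6 mice, which cannot go below 0.1 with 3 mice against 3, gave a p of 0.3 for Th, Ddc and Maob. It gave 0.4 for Dbh, 0.6 for Slc18a2, 0.7 for Slc6a2 and Drd2, 0.9 for Drd1 and 1.0 for Slc6a3 in the same exact permutation test.

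Downstream of the receptors, 0 of 9 adrenergic receptor genes and 0 of 10 genes of dopamine receptor signalling passed the unadjusted threshold. The adrenergic receptors had a median log2 fold change of -0.06, with -0.11 for Adra1a and Adrb3 and 0.07 for Adra1b. Adra1a was the most abundant of them, at 29.7 ± 1.37 CPM in control and 27.5 ± 5.16 CPM in PLDP mice (SD, n = 3 each), and Adrb3 the least, at about 1 CPM. Ppp1r1b, the DARPP-32 gene whose product relays D1 signals to protein phosphatase, was at 252 ± 13.4 CPM in control and 249 ± 10.7 CPM in PLDP mice. Over all 36 listed pathway genes outside the 9, 32 were tested, and 2 were higher and 1 lower. This share of 9.38% was close to the 8.60% of all features, and the median log2 fold change was -0.02.

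**Figure D3:**
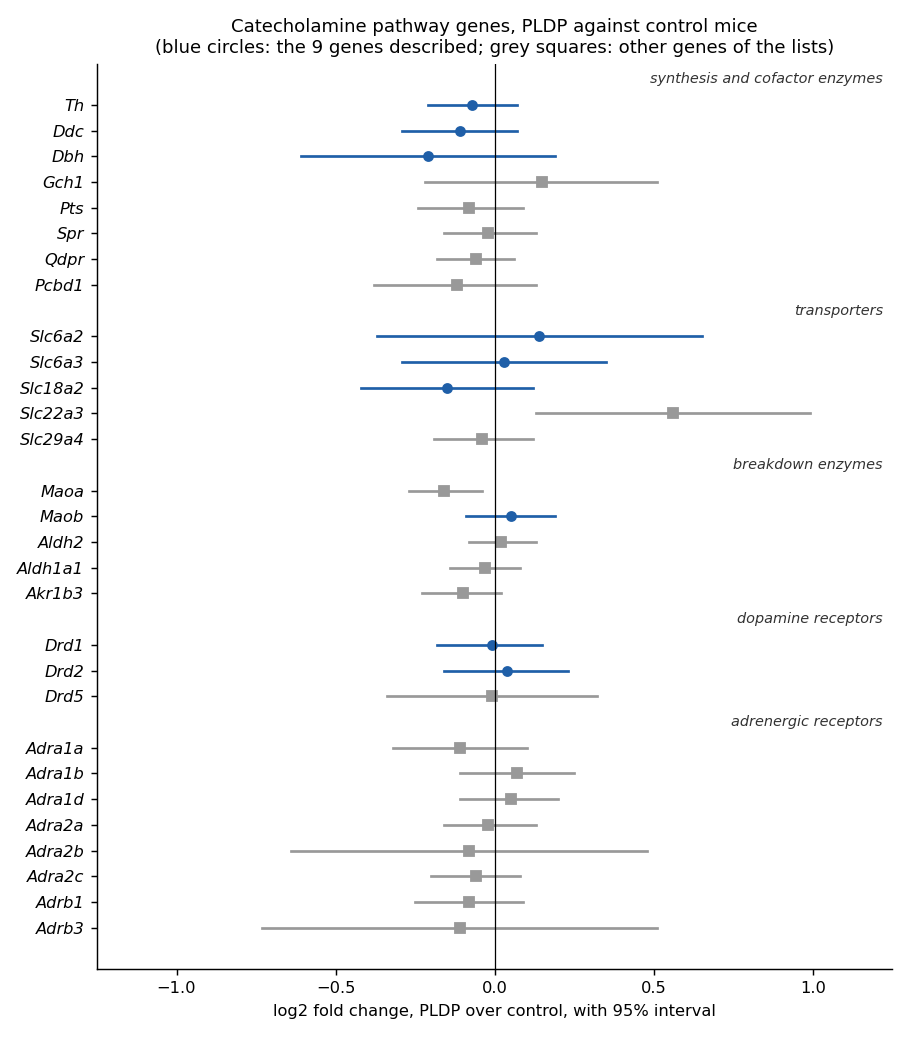
Log2 fold change of PLDP over control mice with its 95% interval (horizontal axis, edgeR quasi-likelihood fit) for genes of synthesis, transport, breakdown and reception, with the 9 genes described as blue circles and other genes as grey squares. The intervals of all 9 include 0, and Slc22a3 at 0.56 and Maoa at -0.16 have intervals that stay on 1 side of it.

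To compare levels between genes, CPM was divided by the length of each gene's annotated exons in kilobases. On this length-scaled level, over all 6 mice, Th was the highest at 10.6 ± 0.45 CPM per kilobase, followed by Maob at 10.5 ± 0.483, Drd2 at 9.57 ± 0.975, Drd1 at 5.39 ± 0.315 and Ddc at 3.61 ± 0.269. Slc6a3 at 2.24 ± 0.384, Slc18a2 at 1.89 ± 0.287, Dbh at 1.05 ± 0.181 and Slc6a2 at 0.399 ± 0.108 CPM per kilobase were the lowest (SD, n = 6). Neighbours in this order overlapped in their ranges for Th and Maob, for Maob and Drd2 and for Slc6a3 and Slc18a2, and were apart for the others. With the length of the longest coding transcript instead, Ddc moved to 7.98 CPM per kilobase, above Drd1, and Slc18a2 to 2.62, above Slc6a3. A level compared between genes also depends on how reads were assigned to each gene, which was not tested.

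**Figure D4:**
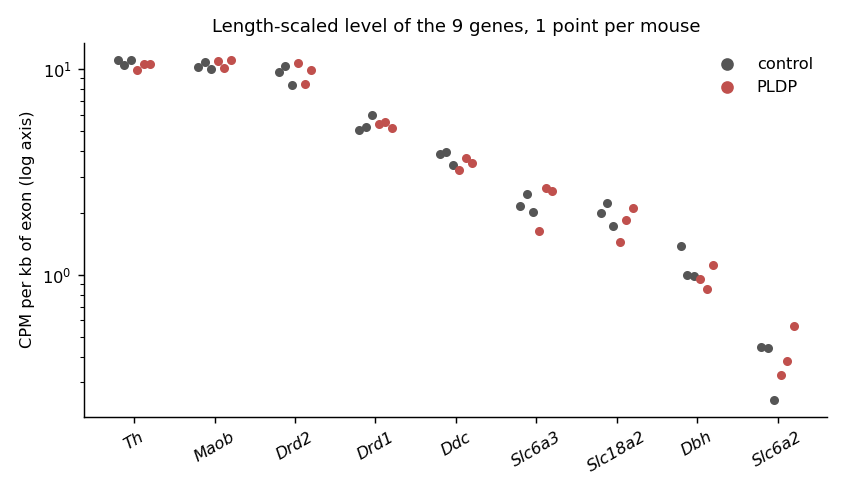
Length-scaled level (vertical log axis, CPM per kilobase of exon) of the 9 genes in each mouse, control in grey and PLDP in red, ordered by the mean over 6 mice. Levels run from 10.6 CPM per kilobase for Th to 0.399 for Slc6a2, and the diets are interleaved within each gene.

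The lowest values of several genes came from the same mice. PLDP mouse 17 had the lowest level of 4 of the 9 genes (Th, Ddc, Slc6a3 and Slc18a2), and control mouse 10 of 3 (Slc6a2, Drd2 and Maob). Markers of monoamine neurons did not all share this order. Of the 10 tested genes of dopamine neuron identity, control mouse 10 had the lowest level of 4, PLDP mouse 17 of 1 and other mice of 5. En1, a transcription factor of midbrain dopamine neurons, was at 2.28 CPM in control mouse 10 and 2.32 CPM in PLDP mouse 17 and at 2.77 to 3.74 CPM in the others, whereas the related factor En2 was highest in PLDP mouse 17, at 33.7 CPM, and Chrna6, a nicotinic receptor subunit, was lowest in control mouse 2, at 1.54 CPM. Of the 6 genes of serotonin neurons, control mouse 10 had the lowest level of 3 and PLDP mouse 17 of 2. Tph2, the serotonin-synthesis enzyme of the brain, was at 6.16 CPM in control mouse 10 and at 8.04 CPM in PLDP mouse 17. These mice were picked after their values were seen, and the part of this spread in the comparison of diets was not tested.

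The 9 genes gave 36 pairs, whose log2 CPM was correlated over the 6 mice. In 3 pairs the exact permutation p of Pearson's r was below 0.05, and in 0 of 36 after Benjamini-Hochberg adjustment over the pairs, the smallest adjusted p being 0.55. Ddc and Slc18a2 had r = 0.84 (exact permutation p = 0.0417) and Spearman's rho = 0.83 (exact permutation p = 0.0583), and r fell to 0.36 without the 2 mice farthest from the median of Ddc. Drd2 and Maob had r = 0.83 (exact permutation p = 0.0472) and rho = 0.83 (exact permutation p = 0.0583), and r was 0.53 without 2 mice. Slc6a2 and Drd1 were opposed, with r = -0.88 (exact permutation p = 0.0417) and rho = -0.89 (exact permutation p = 0.0333), and r was -0.66 without 2 mice. Slc6a3 and Slc18a2, both of dopamine neurons, had r = 0.84 (exact permutation p = 0.0611) and rho = 0.60 (exact permutation p = 0.242), and r was -0.15 without 2 mice. Leaving out the mice farthest from the median also narrows the range, so these values cannot show what a relation rested on. As correlations of the deviations from the diet means, which were not tested, the values of these 4 pairs were 0.81, 0.86, -0.88 and 0.90.

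The features most like Th, Drd2 and Maob over the 6 mice were picked from all 18580 tested features, and these likenesses were not tested. As a description over 6 mice, the tested genes most like Th by Pearson's r of log2 CPM were Rnf39, Trbc1, Btc, Ints4 and Acadsb, with r from 0.985 to 0.997, and 48 of the 18580 features had r above 0.95. Those most like Drd2 were Ppm1f, Mapkapk3, Ppp1r14a, Jazf1 and Gid8, with r from 0.979 to 0.987 among 55 features above 0.95. Those most like Maob were Rsph3a, Bspry, Il17rc, Kif23 and Unc5a, with r from 0.977 to 0.989 among 21 features. None of the other 8 genes was among the 5 most like any of these.

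The genes that define the neurons carrying the pathway were counted for comparison. Of 13 genes of dopamine neuron identity, 10 were tested, and Nr4a2, a nuclear receptor that keeps the dopamine phenotype and is also found in cortex, was higher in PLDP mice. It was at 37.1, 33.8 and 36.3 CPM in the control mice and at 39.0, 44.4 and 42.0 CPM in the PLDP mice, without overlap, a log2 fold change of 0.23 ± 0.06 (SE) with an edgeR unadjusted p of 0.00221 and an adjusted p of 0.291. Pitx3, a factor restricted in brain to midbrain dopamine neurons, had 2 to 10 reads per mouse, and Foxa1 and Foxa2 were also under the filter. The other 9 tested genes of this list passed no threshold and went both ways, from -0.51 ± 0.24 (SE) for Lmx1b, with an edgeR unadjusted p of 0.0503 and an adjusted p of 0.583, to 0.40 ± 0.31 (SE) for Lmx1a. En2 was at 0.14, Ret at -0.10 without overlap between the diets, and the rest between -0.08 and 0.

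Of 5 genes of noradrenaline neuron identity, 4 were tested. Gal, a neuropeptide of the locus coeruleus and of hypothalamus, was at 3.94, 4.04 and 3.01 CPM in the control mice and at 2.32, 2.64 and 2.14 CPM in the PLDP mice. It fell in PLDP mice without overlap, with a log2 fold change of -0.62 ± 0.18 (SE), an edgeR unadjusted p of 0.0027 and an adjusted p of 0.306. Phox2a, a transcription factor that defines noradrenaline neurons, had 3 to 11 reads and was under the filter, while Dbh and Slc6a2, the noradrenaline genes among the 9, passed no threshold.

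Markers of other cells and regions were read in the same fit. The 6 serotonin neuron genes, the 6 genes of D1 striatal projection neurons and the 5 tested genes of D2 striatal projection neurons held 0 calls. Among 9 astrocyte genes, Aqp4 and Fgfr3 were lower, by -0.11 and -0.21 on the log2 scale, and Aqp4 lost its call without PLDP mouse 17, PLDP mouse 26 or control mouse 10. The astrocyte list as a whole went both ways, with 4 positive and 5 negative fold changes and a median of 0. Without overlap of the diets, 1 astrocyte gene was higher and 2 were lower. The olfactory bulb list of 6 genes held 1 higher gene, Eomes, and 1 lower gene, Synpr, with log2 fold changes of 0.22 and -0.16. Eomes was at 0.10 without PLDP mouse 22 and 0.13 without control mouse 5, Synpr was at -0.09 without PLDP mouse 17, and none of these passed; Eomes also lost its call with DESeq2. Of 8 tested hypothalamic genes, Pmch, the melanin-concentrating hormone gene, was lower by -0.36 on the log2 scale, and by -0.11 without a call when PLDP mouse 17, at 7.67 CPM against 14.2 to 16.7 CPM in the others, was left out. The myelin gene Mbp was lower by -0.12 on the log2 scale, a call lost without PLDP mouse 22, PLDP mouse 26 or control mouse 5, and 0 of 5 blood genes passed. Of 10 tested genes of brainstem and spinal neurons, 8 were lower in PLDP mice, the median of the list being -0.73 on the log2 scale, and none of the 11 listed was at a count of 0. Slc6a5, the glycine transporter of hindbrain and spinal neurons, was at 49.4, 44.0 and 42.1 CPM in the control mice and at 31.0, 22.4 and 32.7 CPM in the PLDP mice, a log2 fold change of -0.66 ± 0.10 (SE) with an edgeR adjusted p of 0.0369. Glra1, a glycine receptor subunit, and Hoxb3, a hindbrain patterning gene, were lower by -0.50 and -1.05 on the log2 scale. The summed level of this list was 354 to 392 CPM in control and 265 to 336 CPM in PLDP mice. PLDP mouse 22 had the lowest sum and also the lowest Dbh, at 2.31 CPM. Slc6a2 was lowest in control mouse 10, and PLDP mouse 17 was the lowest for 4 of the 9 catecholamine genes. The part of this list's level in the values of Dbh, Slc6a2 and the other genes of brainstem neurons was not tested.

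**Figure D5:**
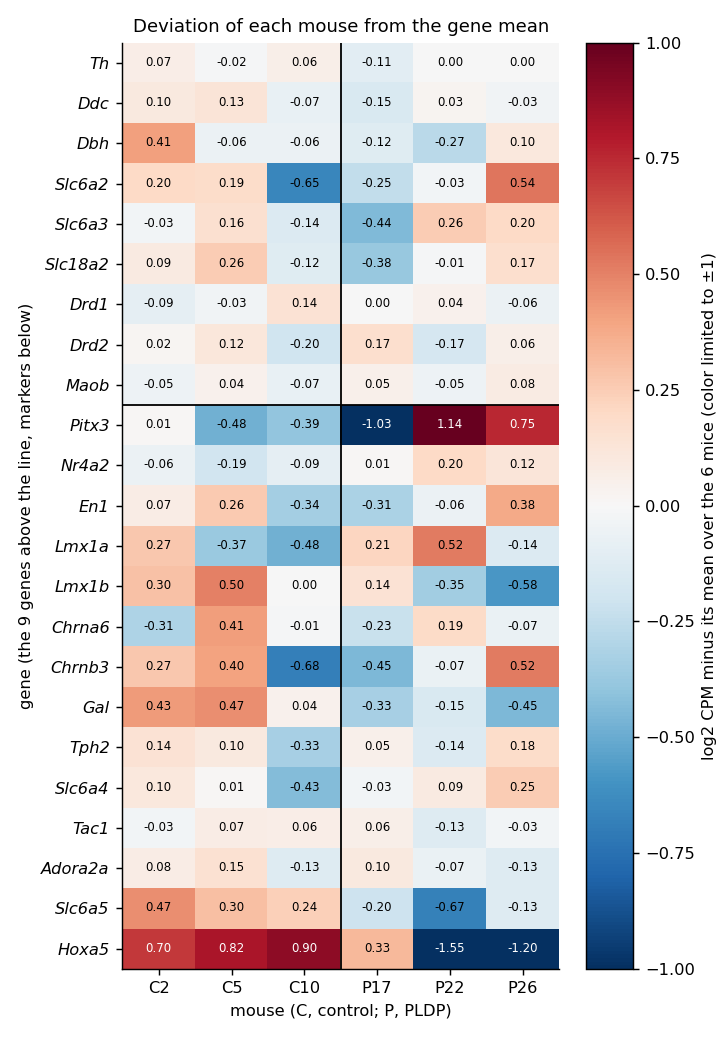
Log2 CPM of each gene in each mouse minus its mean over the 6 mice (color and printed value), for the 9 genes above the line and neuron markers below it, control mice 2, 5 and 10 on the left and PLDP mice 17, 22 and 26 on the right. Slc6a5 is above its mean in all control mice and below it in all PLDP mice, while none of the 9 genes shows such a split.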

How the data were processed

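The authors deposited raw read counts per feature for each of 6 mice, made from stranded libraries of polyadenylated brain RNA. The submitters' processing notes name cutadapt 2.9, HISAT2 2.2.0, featureCounts 2.6.0 and DESeq2 1.6.3 and the builds GRCm38 and GRCh38. Whether counting used strand, and how reads shared by genes were treated, is not given in the sources used here. Totals were 18797061 to 23938729 counts per mouse, so Dbh, with 55 to 77 reads per mouse, carries a counting error of 13.0%. Of 55034 Ensembl identifiers, 54777 were found in GENCODE M21 (GRCm38), and 5320 numbered features kept their names. No pair of mice of the same diet agreed within sampling noise (chi-square per feature 2.36 to 5.33), so each mouse was 1 replicate. Over all features PLDP mouse 17 stood apart, at 5.33 from PLDP mouse 22 and 5.03 from PLDP mouse 26. PLDP mice 22 and 26 were at 2.44 from each other, and pairs across the diets were at 2.93 to 4.83.

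Counts were fitted in R 4.3.3 with edgeR 4.0.16 over all features kept by filterByExpr (minimum count 10, minimum total 15; 18580 features), with TMM scaling, glmQLFit and glmQLFTest and diet as the only term. A call was an unadjusted p under 0.05, with Benjamini-Hochberg adjusted values beside it; over all features 1598 were called and 6 had an adjusted p under 0.05. CPM uses TMM-scaled totals. For correlations, levels and figures, Python 3.11.15, pandas 2.3.3, scipy 1.17.1 and matplotlib 3.10.9 were used. The fit was tested on simulated data.

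The 9 genes, the gene lists and the tests were chosen with earlier results of these data known. By rule the text names the 9 genes, the genes of the synthesis, transporter, breakdown and receptor lists, up to 3 genes per direction of each other list with the smallest p under 0.05, defining markers (Pitx3, Nr4a2, Phox2a, Tph2, Slc6a4 and Slc6a5) and the 5 genes most like Th, Drd2 and Maob. En1, En2, Lmx1a, Lmx1b, Ret, Chrna6, Foxa1, Foxa2, Ppp1r1b and the pituitary genes were added after their values were seen. A few listed genes are counted within their lists but not reported here. Alternatives were a filter of at least 10 counts per mouse or none, scaling by library size only, by upper quartiles or by relative log expression, DESeq2 1.42.0 with and without the filter, limma 3.58.1 voom, bias-adjusted quasi-dispersions and leaving out each mouse. How the mice were caged is not given in the sources used here. If mice of 1 diet shared cages, an effect of cage cannot be told apart from one of diet. The p-values set the difference of the diets against the spread between mice that the fit estimated.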

Additional observations from a re-analysis of the deposited data

How the results depend on the processing

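The count of 0 calls among the 9 genes held in every alternative and without each mouse in turn, and the smallest unadjusted p of any of them was 0.0613, for Slc18a2. No paired analysis was possible because the mouse numbers differ between the diets. Over all features 926 were called with DESeq2 and 938 with DESeq2 and no filter, in place of 1598, and 1133 to 2365 without 1 mouse. Among transporters the count was 0 with DESeq2 and no filter, 2 without a filter, which added Slc18a1, and 0 to 1 without 1 mouse (0 without PLDP mouse 17 or control mouse 10). Among breakdown enzymes it was 1 with DESeq2, with and without the filter, with library size only and without a filter, and 1 to 2 without 1 mouse, and Maoa passed in all of these. Among dopamine neuron genes it was 2 with at least 10 counts, bias-adjusted dispersions, voom, no filter and relative log expression, through Lmx1b (main log2 fold change -0.51, unadjusted edgeR p 0.0503), and 1 to 2 without 1 mouse. Among noradrenaline neuron genes it was 1 with DESeq2, with and without the filter, and with at least 10 counts, and 1 to 2 without 1 mouse. Synthesis, adrenergic receptor and signalling genes had 0 to 1 calls without 1 mouse: Qdpr without PLDP mouse 17, Adra1a without PLDP mouse 22 and Pde10a without control mouse 2.

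Without 1 mouse the log2 fold change kept its sign for Th (-0.10 to -0.04), Ddc (-0.17 to -0.06), Dbh (-0.31 to -0.04), Slc18a2 (-0.27 to -0.01) and Maob (0.02 to 0.09). It turned for Slc6a2 (-0.10 to 0.29; -0.10 without PLDP mouse 26, -0.08 without control mouse 10), Slc6a3 (-0.11 to 0.23; -0.11, -0.05 and -0.03 without PLDP mouse 22, PLDP mouse 26 and control mouse 10), Drd1 (-0.06 to 0.05; 0.01 and 0.05 without PLDP mouse 26 and control mouse 10) and Drd2 (-0.05 to 0.13; -0.04 and -0.05 without PLDP mouse 17 and control mouse 10). Where no cause is named, the cause was not tested. Low read numbers limit Dbh and Slc6a2 most. The length-scaled levels with the longest coding transcript, an alternative chosen after seeing the data, moved for Th to 12.9, Maob to 12.2, Ddc to 7.98 and Slc18a2 to 2.62 CPM per kilobase.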
